A study of Malus domestica with 12 samples.

Results

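The 10 most abundant mature sequences of the miR319 family were followed through winter dormancy in apical floral buds of apple. They were chosen among the mature sequences listed as known miRNAs, by taking those whose first name contains miR319 and ranking them by raw reads summed over 12 libraries. The family had 21 sequences among 254 known ones, and 370 sequences were counted in all. The 10 held 289506 of the family's 289966 reads, which is 99.8%. The members were thus chosen by their read totals, which are given as a description and support no comparison. At the limit, ppt-miR319c with 426 reads was the last one taken and ppt-miR319a with 144 reads was the first one left out, and the 11 sequences outside had 2 to 144 reads. Names ending in miR319 were counted as members. A reading of the rule that asks for a further character after miR319 would keep 8 of the 10.

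The dormant buds came from short shoots of Malus domestica trees of the cultivar "Golden Delicious", without treatment or genetic change. They were sampled at 665 chilling hours (Stage 1, Early Endodormancy), 1098 (Stage 2, Late Endodormancy), 1280 (Stage 3, Early Ecodormancy) and 1395 (Stage 4, Late Ecodormancy), with 3 libraries per stage. Endodormancy is growth arrest held by the bud itself, and ecodormancy is arrest held by the cold outside. Each library pooled 9 buds of 3 trees, so whole buds were measured, and a change in the number of cells of a type cannot be told apart from a change in RNA per cell. Each stage was sampled on a date of its own, and stage and date cannot be told apart. Small RNAs were purified with their ARGONAUTE protein, the protein that carries a miRNA to its target. Libraries are called A to C at Stage 1, D to F at Stage 2, G to I at Stage 3 and J to L at Stage 4.

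In Arabidopsis, miR319 directs the cleavage of mRNAs of TCP transcription factors, which slow cell division in leaves and flowers. It descends from the same ancestor as miR159, which acts on GAMYB-like MYB mRNAs that mediate gibberellin and abscisic acid signals, and the mature sequences of both families remain alike. miR319 hairpins are unusually long and are cut from the loop side towards the base, so that inner duplexes can be released before the miRNA itself.

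The members are shown with bases 2 to 8 from the 5′ end in capitals, because these bases and the ends are what separates them. The prefix of a name is the species of the database entry (mdm is apple), and a sequence with a foreign prefix is an apple read identical to that entry. The first group shared bases 2 to 8 and held 91.4% of the members' reads.
mdm-miR319a: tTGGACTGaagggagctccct
cme-miR319c: tTGGACTGaagggagctcct
cme-miR319a: tTGGACTGaagggagctccc
pta-miR319: tTGGACTGaagggagctcc
aly-miR319c-3p: tTGGACTGaagggagctcctt

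The second group of 3 sequences begins 1 base further upstream, which moves the capitals by 1 base, and held 2.92% of the reads.
mes-miR319h: cTTGGACTgaagggagctcct
cpa-miR319: aTTGGACTgaagggagctcc
ppt-miR319c: cTTGGACTgaagggagctccc

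The remaining 2 members are unlike the others and unlike each other, with 5.32% and 0.38% of the reads.
mdm-miR319c-3p: aTCCAACGaagcaggagctga
mdm-miR319d: aACTGCCGactcattcactca

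The whole of pta-miR319, 19 bases long, was contained in 8 of the 10 members, so these 8 differ only at their ends. The exceptions were mdm-miR319c-3p and mdm-miR319d. The 20-base cme-miR319a is mdm-miR319a without its last base, and it differs from cme-miR319c by the single substitution C20T, counted from the 5′ end of cme-miR319a. Reads of the shorter members can be shortened copies of the longer ones, so the 8 were not independent measurements. A miR159 sequence lay 1 base from 2 of the members, ptc-miR159d from mes-miR319h and pta-miR159c from ppt-miR319c, each by C7T.

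Hairpins holding these sequences were found de novo at 8 separate loci of the GDDH13 v1.1 genome, with positions as the deposited table gives them. mdm-miR319a lay in hairpins at chr3:3819077-3819260, chr6:23406554-23406736, chr11:4281033-4281215 and chr14:19180252-19180432, all on the minus strand. cme-miR319a had a hairpin of its own at chr4:29003813-29004018 on the plus strand. cme-miR319c lay at chr13:1979956-1980156 and chr16:2192699-2192883 on the minus strand, and mdm-miR319d at chr7:31009642-31009752 on the plus strand. The miR319 hairpins of chromosomes 3 and 11 were 96.7% identical, those of 6 and 14 were 95.1% identical and those of 13 and 16 were 86.6% identical, against at most 76.3% for any other pair. Whether a gene is annotated at these loci was not analysed here.

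The hairpins of chromosomes 13, 14, 4 and 7 are printed because they hold, between them, all 10 members. Capitals mark the mature sequence of the locus and any inner or opposite-arm sequence of the known list.
Chromosome 13 hairpin: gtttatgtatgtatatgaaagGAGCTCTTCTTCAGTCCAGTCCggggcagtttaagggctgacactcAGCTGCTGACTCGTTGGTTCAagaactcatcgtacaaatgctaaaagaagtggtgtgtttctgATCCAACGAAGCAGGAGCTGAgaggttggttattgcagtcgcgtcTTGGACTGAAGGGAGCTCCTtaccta
Chromosome 14 hairpin: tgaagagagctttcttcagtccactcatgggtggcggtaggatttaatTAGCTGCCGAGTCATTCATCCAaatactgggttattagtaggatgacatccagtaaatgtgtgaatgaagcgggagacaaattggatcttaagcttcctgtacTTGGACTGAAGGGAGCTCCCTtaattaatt
Chromosome 4 hairpin: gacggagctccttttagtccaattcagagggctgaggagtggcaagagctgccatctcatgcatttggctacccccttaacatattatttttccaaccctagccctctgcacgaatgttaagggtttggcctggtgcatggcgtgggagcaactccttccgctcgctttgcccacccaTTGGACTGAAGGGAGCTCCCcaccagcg
Chromosome 7 hairpin: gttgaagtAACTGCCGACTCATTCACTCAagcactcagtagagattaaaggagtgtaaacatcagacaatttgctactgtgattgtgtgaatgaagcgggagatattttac

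The ends of the members set which of the 8 hairpins held them whole. A whole match does not show where a read came from, and loci outside the deposited hairpins were not searched. mdm-miR319a and ppt-miR319c were found whole in the 4 hairpins of chromosomes 3, 6, 11 and 14, and cme-miR319a in these and in that of chromosome 4. cme-miR319c, mes-miR319h and aly-miR319c-3p were found only in the hairpins of chromosomes 13 and 16 among the 8 examined. cpa-miR319, with an A before the common 19 bases, was found only in the hairpin of chromosome 4. pta-miR319 was found in 7 hairpins, so its reads cannot be placed. In the predicted folds, cme-miR319c was paired at all 20 bases on chromosomes 13 and 16, mdm-miR319a at 19 of 21 bases in its 4 hairpins, and mdm-miR319d at 16 of 21.

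mdm-miR319c-3p was found inside a miR319 hairpin. Its own predicted hairpin, chr13:1979996-1980101, lies within the chromosome 13 hairpin of cme-miR319c, on the loop side. In the chromosome 13 hairpin of 201 bases, mdm-miR319c-3p occupied bases 131 to 151 and cme-miR319c bases 176 to 195, which leaves 24 bases between them. The opposite strand of the inner duplex is mtr-miR4414a-5p, at bases 68 to 88, and the outer opposite arm is mdm-miR319h (also named mdm-miR319c-5p), at bases 22 to 43. The chromosome 16 hairpin held mtr-miR4414a-5p whole but differed from mdm-miR319c-3p by T19C. mdm-miR319d matched the inner 5′ part of the hairpins of chromosomes 3 and 11 at 19 of 21 bases, with A2G and C18T counted from its 5′ end.

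**Figure D1:**
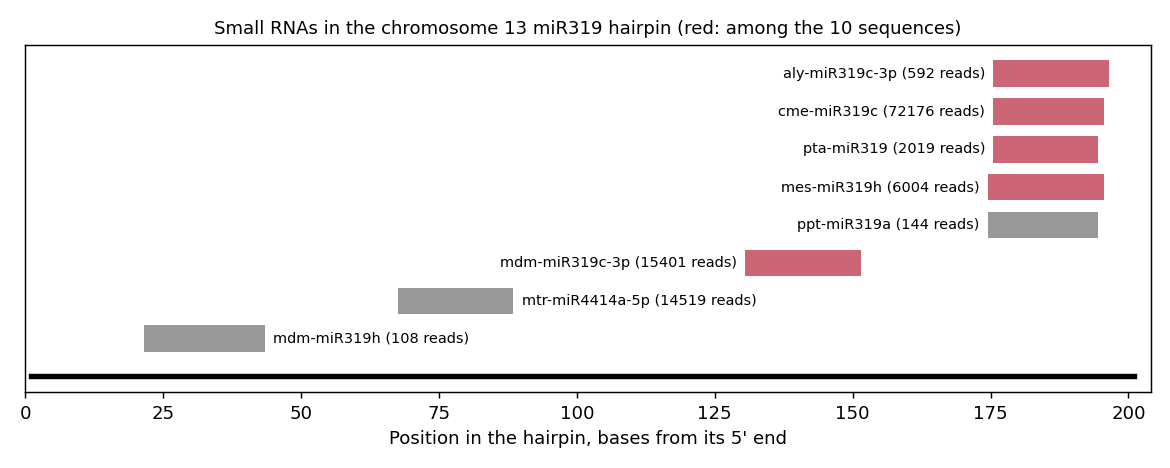
Positions of the known small RNAs found whole in the chromosome 13 hairpin, in bases from its 5′ end, with raw reads over 12 libraries. Red bars are members and grey bars are not, and the inner pair mtr-miR4414a-5p and mdm-miR319c-3p with 14519 and 15401 reads lies between the outer arms, of which mdm-miR319h had 108 reads. These 108 reads are of its 22-base form alone. Reads of the de novo opposite arm, at bases 22 to 42, were not used, so the outer 5′ arm is not fully counted.

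Total mature reads were 561723 to 2307267, and sequences named miR166 or miR165 took 66.2% to 91.4% of them. At Stage 3 this share was 66.2% to 79.6%, against 83.7% to 86.1% at Stage 1. Libraries D and L had the smallest TMM factors, 0.640 and 0.639, and the highest miR166 shares, 89.9% and 91.4%, and results were also computed without them. Levels below are CPM, read counts scaled to a common library size, with TMM factors, which assume that most sequences do not differ. The depth allows a sequence without reads up to 1.73 to 3.69 CPM, depending on the library. Intervals and this limit cover counting error only.

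The 10 members together took 1.24% to 1.74% of mature reads at Stage 1, 1.43% to 2.11% at Stage 2, 2.35% to 2.87% at Stage 3 and 1.18% to 2.52% at Stage 4. These shares have 95% Wilson intervals of at most 0.0406 percentage points to either side. The Stage 3 libraries were above all of Stages 1 and 2, and overlapped with Stage 4. Outside miR166, whose mean share was lowest at Stage 3 and whose part in the shares above was not tested, the members took 9.54% ± 1.31, 13.7% ± 1.69, 9.80% ± 1.54 and 11.5% ± 2.22 from Stage 1 to Stage 4 (SD, n = 3 each). On the CPM scale the sum of the members was 18116 ± 3810, 20858 ± 2577, 20965 ± 4283 and 15807 ± 2280 in the same order (SD, n = 3 each). The stages overlapped on that scale.

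mdm-miR319a, the leading sequence, had 9897, 7462 and 6245 CPM at Stage 1, 10687, 7471 and 10084 at Stage 2, 7555, 5529 and 8070 at Stage 3 and 5616, 5030 and 9621 at Stage 4. Its stages overlapped throughout, within a 2.12-fold range from the lowest to the highest library. cme-miR319a, 1 base shorter at its 3′ end, had 5293, 4659 and 3744 CPM at Stage 1, 6861, 3535 and 4198 at Stage 2, 6882, 2571 and 7296 at Stage 3 and 3128, 3330 and 3262 at Stage 4. Libraries G and I were its highest and library H of the same stage its lowest. All Stage 4 libraries of cme-miR319a were below those of Stages 1 and 2.

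cme-miR319c, of the chromosome 13 and 16 hairpins, had 5411, 3647 and 3518 CPM at Stage 1, 3255, 4921 and 6072 at Stage 2, 5377, 5761 and 6413 at Stage 3 and 4451, 4344 and 4139 at Stage 4. Its Stage 4 libraries were below its Stage 3 libraries and inside the range of Stages 1 and 2. Its inner neighbour mdm-miR319c-3p had 968, 929 and 807 CPM at Stage 1, 779, 1459 and 1201 at Stage 2, 1081, 1300 and 1388 at Stage 3 and 980, 808 and 705 at Stage 4. Its Stage 3 libraries were above those of Stages 1 and 4, and Stage 2 spanned nearly the whole range.

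mes-miR319h, the form of cme-miR319c with an added 5′ C, had 400, 251 and 310 CPM at Stage 1, 273, 243 and 434 at Stage 2, 616, 563 and 679 at Stage 3 and 339, 286 and 294 at Stage 4. Every Stage 3 library was above each of the other 9 libraries. How many of all tested sequences separated in this way was not counted. ptc-miR159d, the miR159 sequence 1 base away, had 133, 187 and 146 CPM at Stage 3 and its highest values, 269, 404 and 443, at Stage 4, so the pair differed in where they were highest. Sequencing error between this pair was not tested.

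cpa-miR319, the form found in the chromosome 4 hairpin, had 94.1, 38.2 and 87.4 CPM at Stage 1, 169.9, 85.0 and 85.9 at Stage 2, 174.0, 238.8 and 190.7 at Stage 3 and 175.4, 103.1 and 175.7 at Stage 4. Stages 3 and 4 were above Stage 1 in every library, and Stage 3 was also above Stage 2. mdm-miR319d, of the chromosome 7 hairpin, had 64.6, 58.1 and 59.3 CPM at Stage 1, 28.9, 59.2 and 87.9 at Stage 2, 117.9, 148.9 and 89.3 at Stage 3 and 36.1, 92.0 and 43.4 at Stage 4. Its Stage 3 libraries were above all of Stages 1 and 2, and Stage 4 overlapped.

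The 3 other members were low and uneven. pta-miR319 lay between 63.9 and 293 CPM, highest in libraries I (293 CPM) and D (243 CPM). aly-miR319c-3p lay between 10.8 and 85.5 CPM. ppt-miR319c had no read in library D, which allows up to 2.71 CPM there, and 107 CPM in library I, more than in any other library. The next sequence by reads, ppt-miR319a, had 0 to 24.4 CPM, and mdm-miR319h, a 22-base form of the outer opposite arm of cme-miR319c, had 0 to 16.2 CPM.

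**Figure D2:**
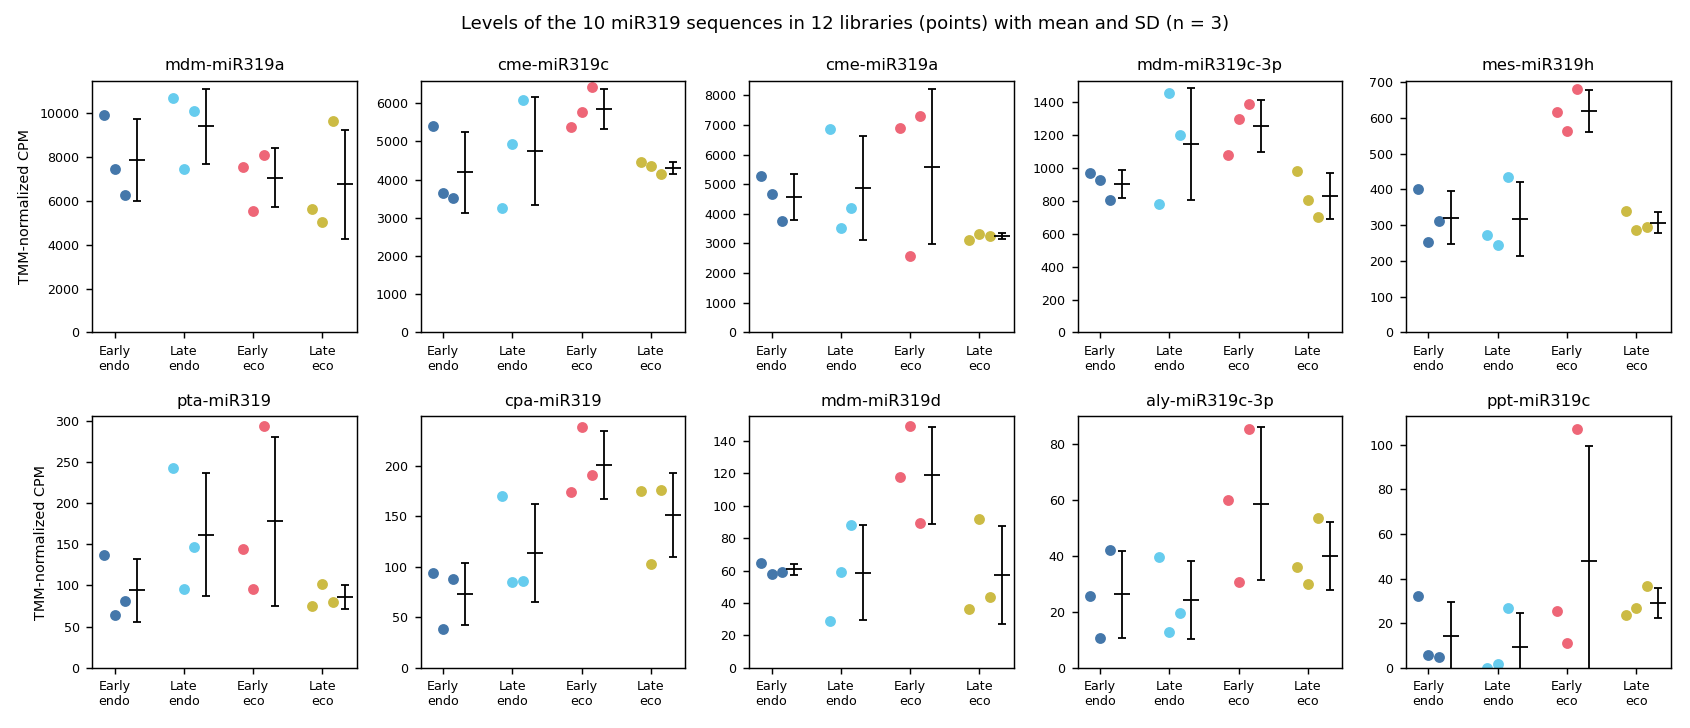
Levels of the 10 members by stage, in TMM-normalized CPM on linear axes from 0, with 1 point per library and the mean and SD of the 3 libraries of a stage beside them (SD bars end at the axis). mes-miR319h is the panel in which the Stage 3 points, 563 to 679 CPM, stand above all others. All stages overlap for mdm-miR319a, and likewise for pta-miR319, aly-miR319c-3p and ppt-miR319c.

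Stage differences were tested with the quasi-likelihood F test of edgeR in 1 model of 12 libraries, with Benjamini-Hochberg adjustment over the 238 sequences that passed a filter on low counts, all 10 members among them. None of the 10 members had an adjusted p under 0.05 for any change among the 4 stages, where 1.26% of all tested sequences had. At an unadjusted p of 0.05 or less the count was 1 of 10, against 10.9% of all tested, and DESeq2 and edgeR's likelihood ratio test likewise gave 0 members after adjustment, with 2 and 0 at the unadjusted level, against 10.3% and 14.3% of all sequences they tested. The adjusted p of the members in this test lay between 0.366 (mes-miR319h) and 0.968 (mdm-miR319a).

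No member passed in the pairwise comparisons either. Among all tested sequences, 0.0% passed for Stage 2 against Stage 1, 0.42% for Stage 3 against Stage 1, 1.26% for Stage 4 against Stage 1, 0.84% for Stage 3 against Stage 2, 2.52% for Stage 4 against Stage 2, 0.42% for Stage 4 against Stage 3 and 1.26% for ecodormancy against endodormancy. By the unadjusted p at the same limit, edgeR's quasi-likelihood test gave 0, 2, 0, 1, 0, 1 and 1 members in that order, against 5.04%, 9.66%, 10.5%, 10.1%, 7.14%, 11.8% and 10.1% of all tested sequences, and DESeq2 gave 0, 2, 1, 2, 0, 1 and 4 members, against 4.07%, 6.50%, 10.3%, 8.13%, 6.78%, 10.3% and 8.67% of the 369 sequences it gave a p. After adjustment both gave 0.

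mes-miR319h had the smallest adjusted p of the members for Stage 3 against Stage 2 and for Stage 4 against Stage 3. Its level at Stage 3 averaged 619 ± 58.5 CPM against 321 ± 74.6 CPM at Stage 1 (SD, n = 3 each), a log2 fold change of 0.95 ± 0.40 (SE) with an adjusted p of 0.427 by edgeR. Against Stage 2, with 317 ± 103 CPM, its log2 fold change at Stage 3 was 0.97 with an edgeR adjusted p of 0.344. At Stage 4 it averaged 306 ± 28.8 CPM, a log2 fold change of -1.01 ± 0.40 (SE) against Stage 3, with an edgeR adjusted p of 0.251. The smallest adjusted p for any member in any of the alternatives was 0.066, which DESeq2 gave to mes-miR319h and cpa-miR319 for Stage 3 against Stage 1, and the fit without libraries D and L gave to cpa-miR319 for ecodormancy against endodormancy.

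For cpa-miR319 the log2 fold change of Stage 3 against Stage 1 was 1.46 ± 0.55 (SE), from 201 ± 33.6 CPM and 73.2 ± 30.5 CPM (SD, n = 3 each), with an edgeR adjusted p of 0.413. For ecodormancy against endodormancy it was 0.93 ± 0.38 (SE), with an edgeR adjusted p of 0.380. mdm-miR319a gave -0.16 ± 0.36 for Stage 3 against Stage 1 and -0.32 ± 0.25 for ecodormancy against endodormancy (SE), with edgeR adjusted p of 0.962 and 0.746. The sign of its first value changed with the scaling, to 0.46 with the total of mature reads.

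As a list, the members' median log2 fold change of Stage 3 against Stage 1 was 0.93, with 9 of 10 above 0. Over all 238 tested the median was 0.15, with 134 above 0. Of Stage 4 against Stage 3 the members' median was -0.66, with 0 of 10 above 0. Over all tested it was 0.01, with 119 above 0. Both medians of the members moved by more than 1.5 times with a library left out. The first was 0.45 without library I, against 0.15 over all tested, and the second was -0.39 without library A, -0.39 without C, -0.40 without D, -0.38 without F and -0.42 without J, against 0.23, 0.23, 0.22, 0.26 and 0.10 over all tested. The values of single members for Stage 3 against Stage 1 ran between -0.16 (mdm-miR319a) and 1.73 (ppt-miR319c), with 0.48 for cme-miR319c, 0.29 for cme-miR319a and 0.48 for mdm-miR319c-3p. Scaling by the total of mature reads moved the median of all tested to 0.75 and that of the members to 1.54, and scaling by reads outside miR166 moved them to 0.04 and 0.72. For Stage 4 against Stage 3 scaling outside miR166 gave a median of 0.05 for the members, with 5 of 10 above 0, and 0.55 for all tested. Median-of-ratios scaling left 1 of 10 members above 0 there. Medians of the members for Stage 2 against Stage 1, Stage 4 against Stage 1, Stage 3 against Stage 2, Stage 4 against Stage 2 and ecodormancy against endodormancy were 0.14, -0.08, 0.56, -0.09 and 0.31, against -0.03, 0.04, 0.14, -0.07 and 0.07 for all tested. With a library left out these members' medians ran from -0.06 to 0.28, -0.11 to 0.37, 0.45 to 0.80, -0.23 to 0.28 and 0.19 to 0.53. Comparisons that share a stage share its libraries.

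In 4 of 10 members all Stage 3 libraries were above all Stage 1 libraries, against 9.24% of all tested sequences. These were mes-miR319h, cpa-miR319, mdm-miR319d and mdm-miR319c-3p. For Stage 3 above Stage 2 the count was 3 of 10 against 10.1%, and for Stage 4 below Stage 3 it was 3 of 10 against 7.98%. In the opposite directions the counts were 0 of 10, against 10.1% for Stage 3 below Stage 1, 7.14% for Stage 3 below Stage 2 and 4.62% for Stage 4 above Stage 3. For Stage 4 against Stage 1, 1 member was above (cpa-miR319) and 1 below (cme-miR319a), against 13.4% and 13.9%. For Stage 4 against Stage 2, 0 were above and 1 below (cme-miR319a), against 7.56% and 5.46%. For Stage 2 against Stage 1 the count was 0 both above and below, against 3.36% and 12.6%, and for ecodormancy against endodormancy likewise 0, against 1.26% and 0.0%. The members share sequence, so these counts are not over independent items.

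**Figure D3:**
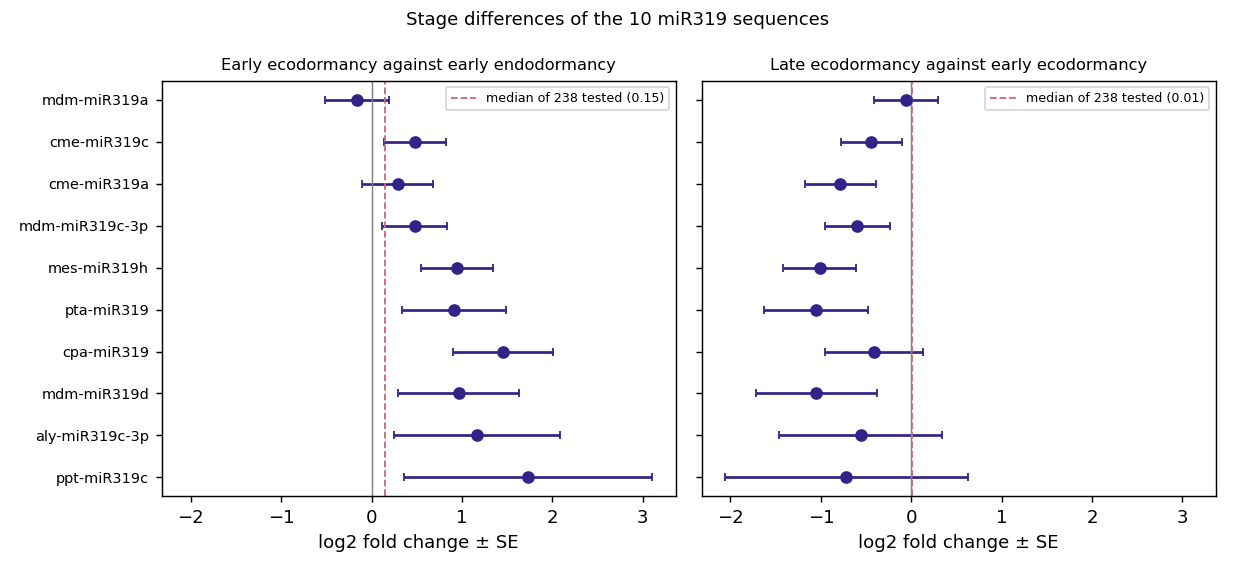
Log2 fold changes with their SE from edgeR for the 10 members, Stage 3 against Stage 1 on the left and Stage 4 against Stage 3 on the right. The dashed line is the median of the 238 tested sequences, of which 134 were above 0 on the left and 119 on the right. Of the members, 9 of 10 points lie above 0 on the left and 0 of 10 on the right, none with an adjusted p under 0.05.

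Ratios within a library are free of the scaling between libraries. The ratio of 20-base cme-miR319a to 21-base mdm-miR319a was 0.53, 0.62 and 0.60 at Stage 1, 0.64, 0.47 and 0.42 at Stage 2, 0.91, 0.47 and 0.90 at Stage 3 and 0.56, 0.66 and 0.34 at Stage 4. Libraries G and I were the highest, and library H of the same stage was among the lower ones. The ratio of mes-miR319h to cme-miR319c, which differ by the 5′ C alone, was 0.0739, 0.0690 and 0.0884 at Stage 1, 0.0840, 0.0494 and 0.0716 at Stage 2, 0.115, 0.0977 and 0.106 at Stage 3 and 0.0764, 0.0660 and 0.0710 at Stage 4. All Stage 3 libraries were above all others, the nearest being library C of Stage 1. The other forms that begin 1 base further upstream did not separate Stage 3 from Stage 4. cpa-miR319 to cme-miR319a was 0.0253 to 0.0931 at Stage 3, 0.0311 to 0.0562 at Stage 4 and at most 0.0248 before. ppt-miR319c to mdm-miR319a plus cme-miR319a was 0.00144 to 0.00699 at Stage 3 and 0.00277 to 0.00327 at Stage 4. These ratios were not tested.

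Sequences found, among the 8 hairpins, only in those of chromosomes 13 and 16 (cme-miR319c, mes-miR319h and aly-miR319c-3p) were set against those of the other 5 (mdm-miR319a, cme-miR319a and ppt-miR319c). Their ratio was 0.38, 0.32 and 0.39 at Stage 1, 0.20, 0.47 and 0.46 at Stage 2, 0.42, 0.78 and 0.46 at Stage 3 and 0.55, 0.56 and 0.35 at Stage 4. Library D was lowest and library H highest. In every library the sequences of the second set had the larger number of reads. Reads were counted per sequence and not per hairpin. Of the members' reads, mdm-miR319a made up 32.8% to 34.3% at Stage 3, against 41.9% to 44.3% at Stage 1, 41.8% to 47.8% at Stage 2 and 35.5% to 52.3% at Stage 4. Its Stage 3 shares were below those of all other libraries. Shares of the members depend on each other and were not tested.

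**Figure D4:**
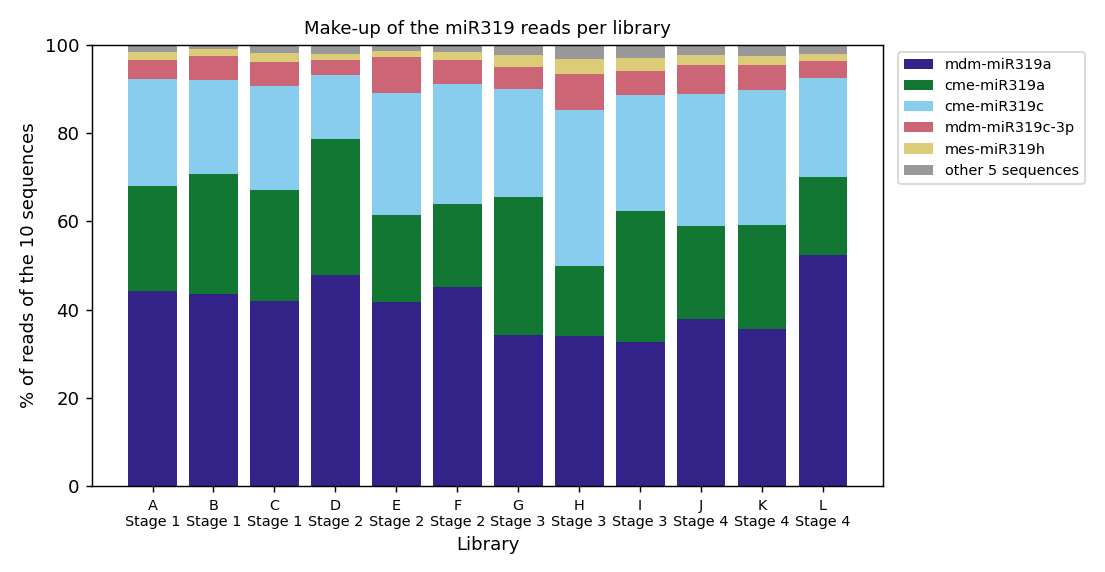
Make-up of the members' reads per library, in percent, stacked by sequence and adding to 100. The lowest block, mdm-miR319a, is 32.8% to 34.3% high in the Stage 3 libraries G to I and 35.5% or more in all others.

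The 2 strands of the inner duplex did not keep a fixed ratio. mtr-miR4414a-5p had 586, 495 and 411 CPM at Stage 1, 1254, 674 and 349 at Stage 2, 1611, 915 and 2807 at Stage 3 and 974, 563 and 287 at Stage 4. Its ratio to mdm-miR319c-3p was 0.61, 0.53 and 0.51 at Stage 1, 1.61, 0.46 and 0.29 at Stage 2, 1.49, 0.70 and 2.02 at Stage 3 and 0.99, 0.70 and 0.41 at Stage 4. Its edgeR adjusted p for any change was 0.104. The 5′ strand exceeded the 3′ strand in libraries D, G and I alone. The chromosome 16 hairpin also holds the 5′ strand, so its reads have a second possible source. By contrast the ratio of mdm-miR319c-3p to cme-miR319c stayed between 0.170 and 0.297 in the 12 libraries. cme-miR319c was also found in the chromosome 16 hairpin, so the same limit holds for this ratio.

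**Figure D5:**
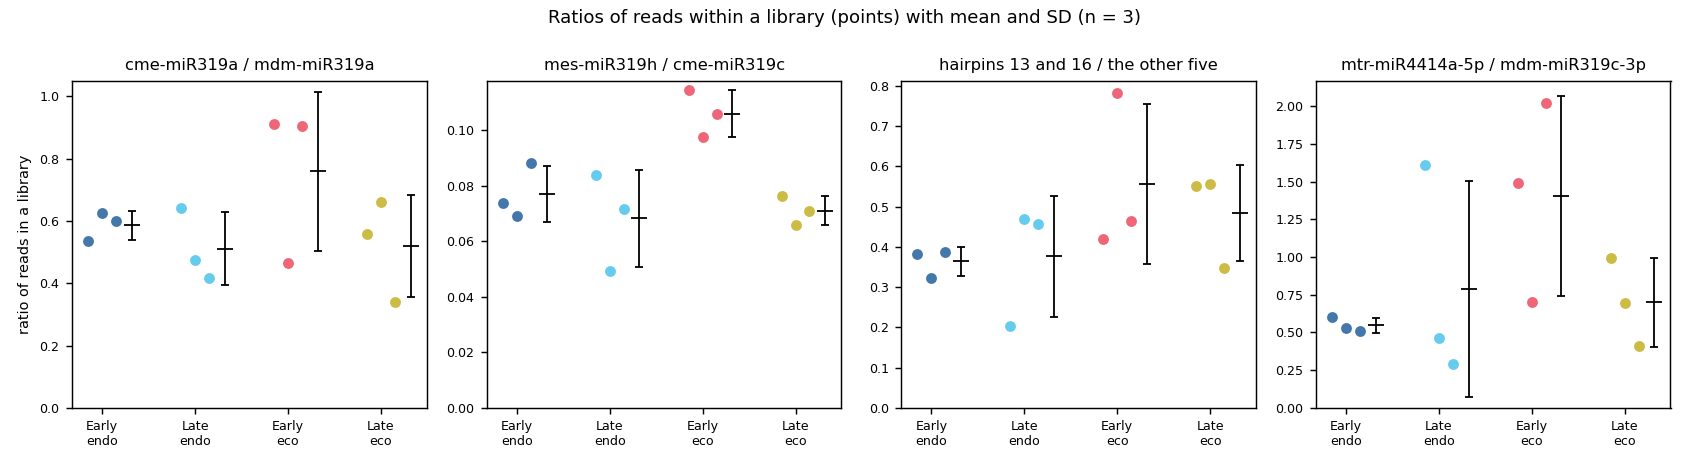
Ratios of reads within each library by stage, with 1 point per library and the mean and SD of 3 libraries, on linear axes from 0. The ratio of mes-miR319h to cme-miR319c is 0.0977 to 0.115 at Stage 3 and at most 0.0884 elsewhere, and that of mtr-miR4414a-5p to mdm-miR319c-3p runs from 0.29 to 2.02.

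Across the 12 libraries, the log2 level of mdm-miR319a was most like that of t04954913_x13904 (an unnamed 21-base sequence, Pearson's r = 0.84), mdm-miR396g (0.80), sit-miR05-npr (0.78), the unnamed t00614980_x824 (0.77) and mdm-miR5225a (0.76), out of 228 tested sequences outside the members. Its r was 0.57 with cme-miR319a and -0.14 with ppt-miR319c, which both share hairpins with it. With cme-miR319c, which does not, r was 0.03. The sequences most like mdm-miR319c-3p were 5 unnamed ones of 24 bases, with r between 0.74 and 0.83. mdm-miR319c-3p gave 0.77 with cme-miR319c, 0.52 with mes-miR319h, 0.27 with pta-miR319 and -0.16 with aly-miR319c-3p, all found in the same hairpin. With mdm-miR319d of chromosome 7 it gave 0.55. All these points share libraries and their scaling, and the values are descriptions.

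The MYB sites are shown because miR319 and miR159 overlap in sequence there. The site letters are those predicted in the apple homologs of Arabidopsis MYB33 (MD07G1085000) and MYB65 (MD02G1269700), which are GAMYB-like genes, with the base that faces base 7 of cpa-miR319 in capitals.
MYB33 homolog: cggagcucccuucaCuccaau
MYB65 homolog: uggagcucccuucaCuccaau

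Counted from its 5′ end, cpa-miR319 formed Watson-Crick pairs with 19 of 20 bases of either site and missed only base 7. mdm-miR319a, aligned in the same frame from its first base, paired at 18 of the 20 bases compared, with bases 6 and 20 unpaired. mes-miR319h paired at 18 of 21, with bases 1, 7 and 21 unpaired, and mdm-miR159a, the apple miR159 of 20 bases, at 18 of 20, with bases 1 and 7 unpaired. mdm-miR159d, of 21 bases, formed 18 Watson-Crick pairs and 1 G:U pair at the MYB65 site, and 17 and 1 at the MYB33 site. Pairing of letters is a description, and cleavage was not measured in these libraries. For miR159a, the paper cites degradome sequencing as evidence of its site on MdMYB33. The authors also mapped cleavage within the MdMYB65 site from cloned mRNA fragments.

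Related families gave the scale of the changes that did pass. Of 17 sequences named miR159 (regulators of MYB mRNAs), 12 were tested and 1 passed for any change, ptc-miR159d, with an edgeR adjusted p of 0.036. It was higher at Stage 4 than at Stage 1, by 1.93 ± 0.48 on the log2 scale (SE, edgeR adjusted p = 0.047), and also passed, higher, for Stage 4 against Stage 2 and for ecodormancy against endodormancy. mdm-miR159d, the most abundant one, had 36895 to 123178 CPM and an edgeR adjusted p of 0.647 for any change. ptc-miR159d is mdm-miR159a with a T added at the 3′ end, so both are not independent measurements. mdm-miR159a did not pass, with an edgeR adjusted p of 0.116 for any change and an unadjusted p of 0.0073. The paper counts mdm-miR159a as differentially expressed at a p of 0.05 or less, and reports the same pattern for its pre-miRNA. In the fit used here its log2 fold change was 1.87 ± 0.53 for Stage 3 against Stage 1 (SE, edgeR adjusted p = 0.132). For ecodormancy against endodormancy it was 1.39 ± 0.37 (SE, edgeR adjusted p = 0.065). Among 5 sequences named miR164, which acts on NAC mRNAs, only mdm-miR164c was tested, and it was lower at Stage 4, with 92.8, 151 and 140 CPM, against 454, 658 and 405 CPM at Stage 1 (log2 fold change -1.98 ± 0.49, SE, edgeR adjusted p = 0.047). Of 16 sequences named miR396, which acts on growth-regulating factor mRNAs, 9 were tested and 0 passed in any comparison by edgeR, with 1 below the unadjusted limit for any change. Its most abundant sequence, mdm-miR396d, had 854 to 3552 CPM.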

How the data were processed

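Small RNAs of 12 libraries, 3 at each of 4 stages, were analysed. The authors mapped reads to GDDH13 v1.1 and counted them with Mir-Island, and deposited raw read counts per mature sequence for known miRNAs and for hairpins found de novo. The submitters' processing notes name CASAVA and Bowtie 0.12.9. Trimming, mismatches and the treatment of reads with several loci are not given in the sources used here. Column numbers were tied to library letters through the paper's supplementary count table, which holds identical counts, and to stages through its list of libraries. It gives no replicate numbers. A further 48 columns with a value per library were not used, so the planned comparison with the opposite arms of the de novo table and the planned scaling by the total behind the deposited RPM were not made.

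Distinct sequences of both tables were joined (370, depth 561723 to 2307267 mature reads per library). Counts were filtered with filterByExpr (minimum count 10, minimum total 15) and tested with edgeR 4.0.16 in R 4.3.3, by the quasi-likelihood F test on TMM-normalized counts, with a mean per stage. Benjamini-Hochberg adjustment covered all tested sequences, at a threshold of 0.05. Standard errors were the absolute log2 fold change over the root of the F statistic. Libraries were separate pools of buds, and no pair of a stage agreed within sampling noise. Log2 levels of single libraries and ratios used a pseudocount of 0.5. Alternatives were median-of-ratios scaling, totals with and without miR166, reads obtained per library, other filters, edgeR's likelihood ratio test, DESeq2 1.42.0, a robust spread, known sequences alone, only the stages compared, and leaving out each library. Reads obtained per library, and libraries D and L left out together, were added after the data were seen. Hairpins were folded with RNAfold 2.7.2 and aligned with Biopython 1.88. Named sequences were the 10 members, the next 2 of the family, opposite arms, the 5 most like mdm-miR319a and mdm-miR319c-3p, and the most abundant of miR159, miR164 and miR396. ptc-miR159d and mdm-miR159a were named after their values were seen. The members and lists were chosen with earlier results of these data known.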

Additional observations from a re-analysis of the deposited data

Results flagged for a closer look

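In each phase of 6 libraries, the gap of the highest and of the lowest library to its neighbour was compared with the whole range, for the 10 members and their sum. In 2 of 22 groups the gap passed Dixon's 95% value of 0.625. Chance passes about 1 in 20 groups when the groups are independent and each comes from a single population. The groups here each pool 2 stages and share sequence and libraries, so that rate cannot be set against this count. Library I was far above the other 5 ecodormancy libraries for pta-miR319, with 293 CPM, and for ppt-miR319c, with 107 CPM. Both are minor sequences that share bases with more abundant members, and the reason for their high values in library I was not tested.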

How the results depend on the processing

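No member passed the adjusted threshold for any comparison under any alternative, whichever library was left out (0 in every fit). The fits tested 10 members, except for 9 with at least 10 reads in every library. Stage 2 against Stage 1 with only the libraries compared also tested 9. At an unadjusted p of 0.05 or less, the members' count for Stage 3 against Stage 1 was 8 with the total of mature reads, against 2 with TMM, and 0 without library B or without library H. The shares of all tested sequences were 13.4%, 9.66%, 4.10% and 9.76%. The share of mature reads moved to 9.54%, 13.7%, 9.80% and 11.5% from Stage 1 to Stage 4 when miR166 was left out of the total. Signs of small, uncalled log2 fold changes turned in 14 values under the other alternatives and in 10 with a library left out. mdm-miR319a, Stage 3 against Stage 1, gave 0.46 with the total of mature reads and 0.068 with reads obtained per library, and -0.29 to 0.028 with a library left out. For Stage 4 against Stage 3 it gave 0.13 with median-of-ratios scaling, 0.58 outside miR166, 0.23 without filter, 0.17 with at least 10 reads in every library, 0.13 with DESeq2, 0.25 with known sequences alone and 0.22 with only the libraries compared, and -0.26 to 0.30 with a library left out. For ecodormancy against endodormancy it gave 0.16 with the total of mature reads. Outside miR166, Stage 4 against Stage 3 gave 0.13 for cme-miR319c, 0.12 for cpa-miR319, 0.19 for aly-miR319c-3p and 0.18 for ppt-miR319c. With a library left out it gave -0.51 to 0.031 for cpa-miR319 and -1.03 to 0.60 for ppt-miR319c. Dividing by another total shifts all sequences of a library together, and the cause was not tested for the other settings. ppt-miR319c did not reach 10 reads in every library and has no value there. No paired analysis was possible because the columns carry no replicate numbers. The planned scaling by the total behind the deposited RPM was not run. Low counts limit ppt-miR319c and aly-miR319c-3p most.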
